A study of Mus musculus with 12 samples.

Results

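Laminins are heterotrimers of 1 α, 1 β and 1 γ chain that form the cell-facing network of basement membranes, and nidogens, perlecan and agrin are the proteins that link this network to other layers and to cell surface receptors. RNA levels of 10 genes were examined: the laminin chains Lama2, Lama4, Lama5, Lamb1, Lamb2 and Lamc1, the nidogens Nid1 and Nid2, perlecan (Hspg2) and agrin (Agrn). They were chosen by name as the main laminin chains and linker proteins of the fibroblast and muscle basement membrane. Earlier results of these data were known when they were chosen. All 10 were among the 18028 genes tested of 35523 in the files. RNA-seq was performed on primary cardiac fibroblasts of adult wild-type C57BL/6J mice of both sexes, released with collagenase, plated and grown with serum and basic fibroblast growth factor. Cells were transfected with scramble siRNA or with siRNA against histone H1.0 (gene H1f0), a linker histone that binds chromatin between nucleosomes, held in low serum for 24 h and then given vehicle or TGF-β, a cytokine that activates fibroblasts, at 10 ng/ml. The 4 groups (scramble with vehicle, scramble with TGF-β, H1.0 siRNA with vehicle and H1.0 siRNA with TGF-β) had 3 biological replicates each, 12 libraries in all. How many animals entered each replicate is not given in the sources used here, the cells were grown on plates outside their tissue, and a single siRNA reagent against H1.0 was used, so that its effects on other transcripts and the loss of H1.0 cannot be told apart.

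In the heart, laminin α2 is the chain through which muscle basement membranes bind α-dystroglycan and integrin α7β1, and its loss causes a congenital muscular dystrophy. Laminin α4 is typical of vessel walls and mesenchymal cells, and laminin α5 of epithelial and endothelial basement membranes. The γ1 chain binds nidogen, which in turn binds type IV collagen, while perlecan and agrin carry heparan sulfate chains and reach dystroglycan through their laminin G domains. Chains are assembled inside the cell, and messenger RNA levels need not equal the amounts of secreted trimer.

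Library totals ranged from 19.9 to 36.3 M estimated counts (median 24.2 M). All 3 libraries of H1.0 siRNA with TGF-β and replicate 3 of H1.0 siRNA with vehicle were the deepest, at 35.5 to 36.3 M. Values below are normalized counts, that is, TMM-scaled CPM brought to the mean library total, unless TPM or counts per kilobase are named. The target of the siRNA was lower in every H1.0 siRNA library. H1f0 stood at 2515 to 3033 normalized counts in the 6 scramble libraries and at 510.3 to 1075 in the 6 H1.0 siRNA libraries, a log2 change of -1.63 ± 0.22 (SE, adjusted p = 0.00020) with vehicle and -1.94 ± 0.22 (adjusted p = 5.8e-05) with TGF-β. A gene was called when its adjusted p was under 0.01 in edgeR's quasi-likelihood test on all genes (Benjamini-Hochberg). Libraries of the same replicate number behaved as pairs, and a second fit took that number as a block. Its value is added where the call differs. P-values without the block weigh a difference against the spread between the 3 cultures within each group, pooled over the groups. Those with the block weigh it against the spread left after differences between replicate numbers are also taken out.

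Levels were compared between genes as normalized counts per kilobase of the longest annotated coding transcript. In scramble cells with vehicle, Hspg2 was the highest of the 10 at 4199.5 ± 599.5 counts per kilobase (SD, n = 3), and its lowest library (3692) exceeded all libraries of the other genes. Nid1 (3093 ± 229.7), Lama4 (2859.6 ± 172.6) and Lamc1 (2840.5 ± 238.8) followed and overlapped one another. Lamb1 at 2305 ± 317.0 overlapped both Lamc1 above it and Lamb2 below it (1830.6 ± 327.4). A gap without overlap separated Lamb2 from Nid2 (1244 ± 248.6 counts per kilobase), which overlapped Agrn (954.6 ± 350.7), which in turn overlapped Lama2 (660.2 ± 165.3). Lama5 was the lowest at 86.25 ± 19.63 counts per kilobase. In cells given both H1.0 siRNA and TGF-β, the order had changed: Hspg2 (4450.5) and Lamc1 (3365 counts per kilobase) stood above the rest, and Lamb1 (809.1) and Lama4 (925.0) lay with Lama2 (897.4) and Nid2 (970.5). One full-length coding transcript held most counts of each gene other than Hspg2 and Agrn, but 2 annotated Lamb2 transcripts of 332 and 473 bases carried few reads and a large share of its TPM, so TPM was not used to rank Lamb2.

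**Figure D1:**
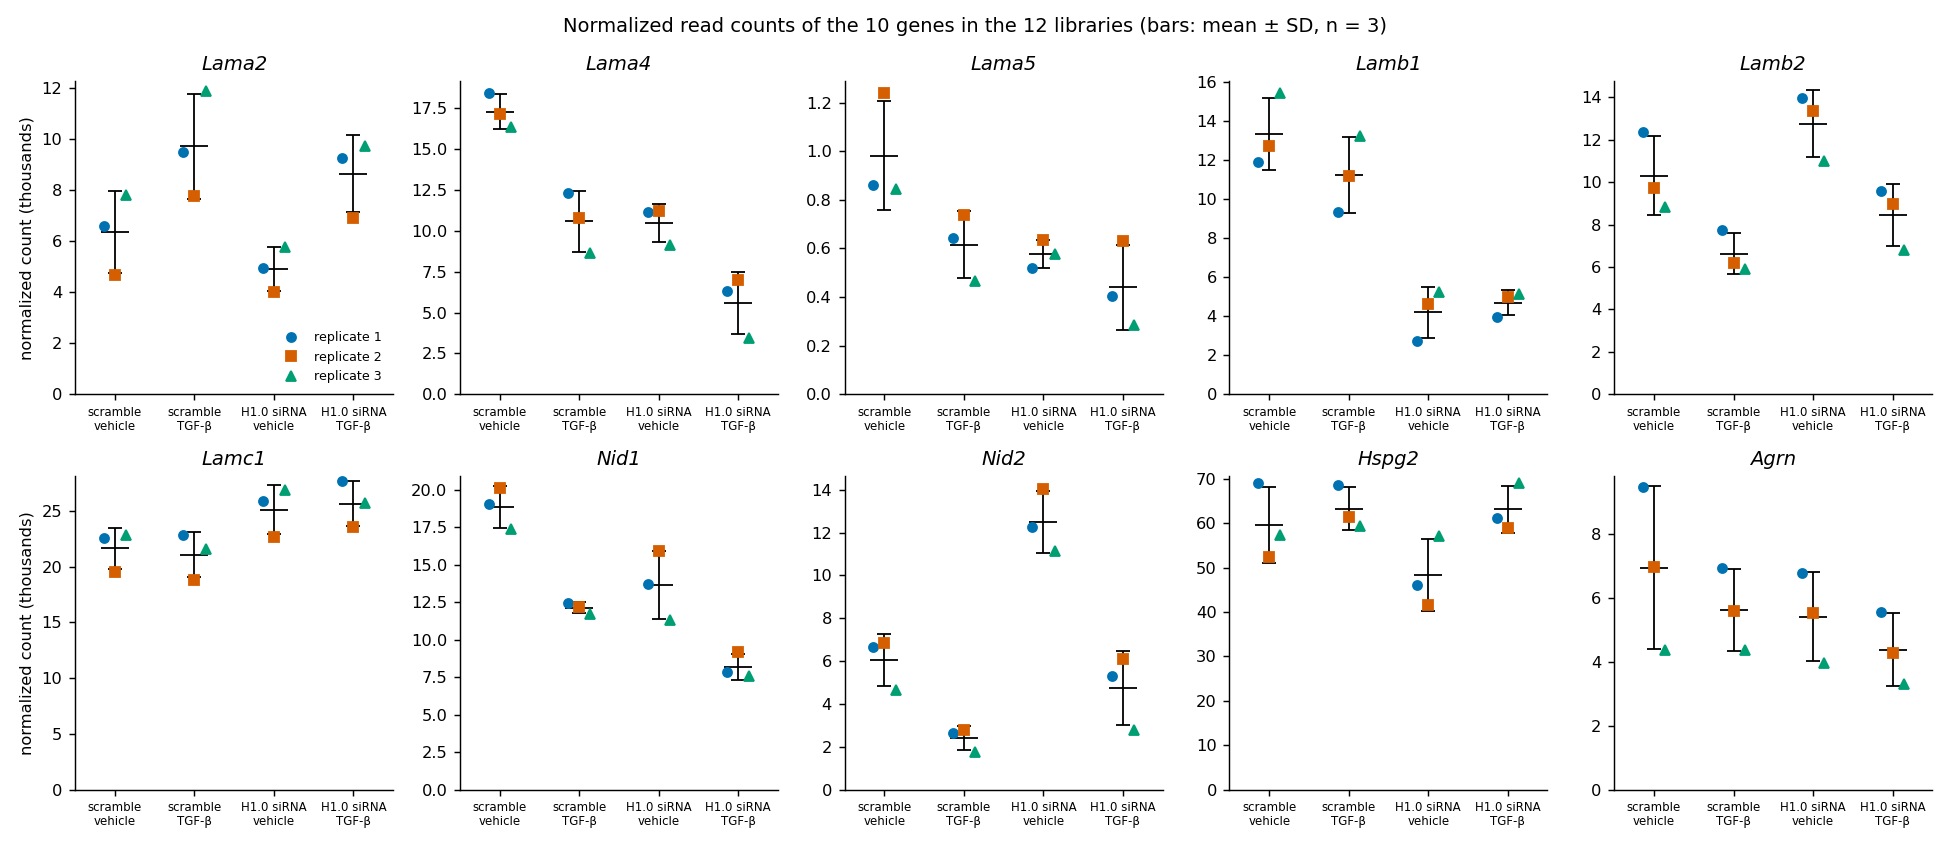
Normalized counts (axes in kilo-counts, starting at 0) of the 10 genes in the 12 libraries, by group; symbols and colours mark the replicate number and black bars the mean ± SD of 3 libraries. Lamb1 sits between 2728 and 5262 in the 6 H1.0 siRNA libraries and between 9334 and 15398 in the 6 scramble libraries, and Nid2 is highest in H1.0 siRNA with vehicle (11144 to 14018) and lowest in scramble with TGF-β (1760 to 2785).

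TGF-β lowered both nidogens. In scramble cells 2 of the 10 genes were called lower with TGF-β and 0 higher, where 7.94% and 10.5% of all genes were called lower and higher. In H1.0 siRNA cells again 2 were called lower and 0 higher, against 6.6% and 9.14% of all genes. At an unadjusted p under 0.05, 1 gene was higher and 5 lower in scramble cells, and 2 were higher and 4 lower in H1.0 siRNA cells, where 41.9% and 39.1% of all genes had such a p in either direction. DESeq2 called 4 and 5 of the 10, against 29.6% and 27.8% of those it tested. With the replicate number as a block, 6 genes passed in each: 1 higher and 5 lower in scramble cells (background 15.4% and 13.0%), and 1 higher and 5 lower in H1.0 siRNA cells (14.2% and 12.6%). The median log2 change of the 10 genes was -0.47 in scramble cells and -0.35 in H1.0 siRNA cells, and that of all genes tested was -0.01 in both. The fold change plot sets these differences beside those of the siRNA.

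**Figure D2:**
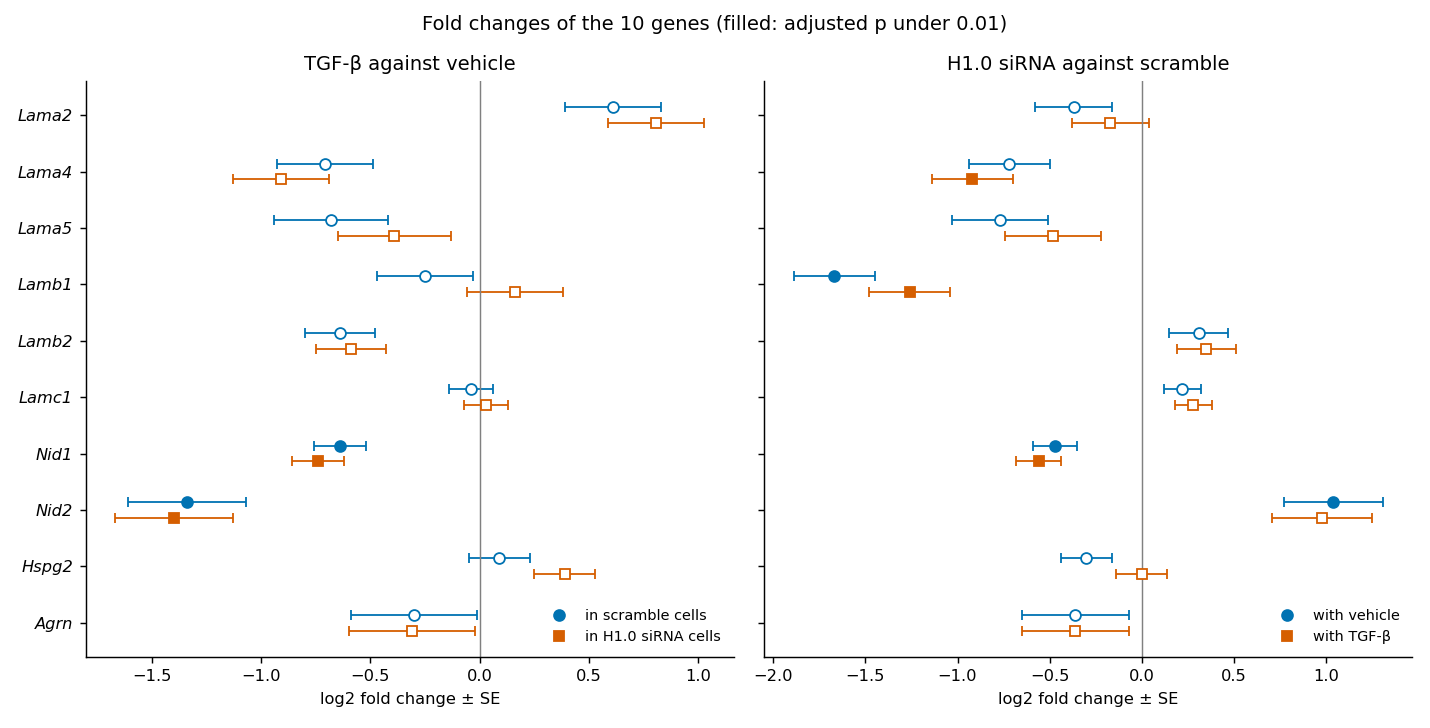
Log2 fold changes ± SE of the 10 genes for TGF-β against vehicle (left) and H1.0 siRNA against scramble (right), from edgeR without the replicate block; filled symbols have an adjusted p under 0.01. Nid1 and Nid2 are left of 0 under TGF-β in both kinds of cells, while under the siRNA Lamb1 and Nid1 are left of 0 and Nid2 is right of it.

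Nid2, the less widely expressed of the 2 nidogens, showed the widest response to TGF-β. In scramble cells with vehicle it stood at 6675, 6856 and 4672 normalized counts in replicates 1, 2 and 3, and with TGF-β at 2641, 2785 and 1760. The groups did not overlap, and each replicate fell, to 0.395 of vehicle (log2 change -1.34 ± 0.27 SE, adjusted p = 0.0034). In H1.0 siRNA cells it went from 12262, 14018 and 11144 counts to 5283, 6110 and 2804 (log2 change -1.40 ± 0.27, adjusted p = 0.0029), again without overlap. Nid1, the main nidogen, fell from 19063, 20114 and 17342 to 12424, 12185 and 11713 in scramble cells (log2 change -0.64 ± 0.12, adjusted p = 0.0021). In H1.0 siRNA cells it fell from 13732, 15885 and 11328 to 7860.0, 9169 and 7538 counts (log2 change -0.74 ± 0.12, adjusted p = 0.0010). Most of these 4 calls rested in part on single libraries. In scramble cells, Nid1 missed the threshold without vehicle replicate 2 or TGF-β replicate 3 (adjusted p up to 0.011), and Nid2 without vehicle replicate 1 or 2 or TGF-β replicate 1 or 3 (up to 0.016). Nid2 in H1.0 siRNA cells missed it without vehicle replicate 2 (adjusted p = 0.013), and Nid1 passed in all 12 such fits. When only the 2 groups of H1.0 siRNA cells were fitted, both nidogens stood at an adjusted p of 0.012. The 3′ end of Nid2 (chr14:19751265-19811787, plus strand) overlaps Rtraf on the opposite strand by annotation, and the sources used here do not say whether strand entered the counting. Rtraf showed log2 changes of 0.02 and 0.18 under TGF-β, with adjusted p = 0.91 and 0.20.

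Under H1.0 siRNA the 2 nidogens moved in opposite directions. Nid1 was lower by a log2 change of -0.47 ± 0.12 (adjusted p = 0.0092) with vehicle and -0.56 ± 0.12 (adjusted p = 0.0031) with TGF-β, and its groups did not overlap in either. Nid2 was 2.06-fold higher with vehicle (log2 change 1.04 ± 0.27, adjusted p = 0.0098). With TGF-β, Nid2 was at a log2 change of 0.98 ± 0.27 and an adjusted p of 0.014, which passed with the replicate block (0.95 ± 0.13, adjusted p = 0.00012). All 3 replicates of Nid2 were higher with the siRNA in both media, and the groups did not overlap. Of the vehicle calls, each of the 2 nidogens passed in 3 of the 12 fits that left out 1 library: Nid1 without H1.0 siRNA vehicle replicate 2 or H1.0 siRNA TGF-β replicate 2 or 3, and Nid2 without scramble TGF-β replicate 3 or H1.0 siRNA TGF-β replicate 2 or 3. In the other 9 fits the adjusted p rose to at most 0.038 for Nid1 and 0.039 for Nid2. With TGF-β, Nid1 lost its call without scramble replicate 1 or 2 or H1.0 siRNA replicate 1 or 3 (adjusted p up to 0.015), and Nid2 gained one without H1.0 siRNA replicate 3 (adjusted p = 0.0010). Nid1 with vehicle also missed the threshold when only the 2 groups were fitted (0.025), and Nid2 by limma-voom (0.011). With the block all 4 siRNA values of the nidogens passed. Rtraf, which overlaps Nid2, rose by 0.40 ± 0.10 on the log2 scale under the siRNA with TGF-β (adjusted p = 0.0064) and was at 0.24 ± 0.10 with vehicle (adjusted p = 0.069), and its part in the Nid2 counts was not tested. As a share of the summed nidogen TPM, Nid2 made up 28.9% ± 3.06 (SD, n = 3) in scramble cells with vehicle, 20.7% ± 3.25 with TGF-β, 54.4% ± 1.43 in H1.0 siRNA cells with vehicle and 41.4% ± 7.97 with TGF-β. The 6 H1.0 siRNA libraries lay between 32.2% and 56.1% and the 6 scramble libraries between 16.9% and 30.7%. These nidogen shares were chosen after the values were seen and carry no test.

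Lamb1 had the widest change of the 10 genes under the siRNA. It encodes laminin β1, a widely expressed β chain, and lies on chr12:31265234-31329644 of GRCm38 (plus strand). Scramble cells held 11891, 12715 and 15398 normalized counts under vehicle, and 9334, 11164 and 13217 after TGF-β. Cells with H1.0 siRNA held 2728, 4613 and 5262 under vehicle, and 3951, 4974 and 5115 after TGF-β. Every H1.0 siRNA library was below every scramble library. Lamb1 fell 3.17-fold with vehicle (log2 change -1.67 ± 0.22, adjusted p = 0.00017) and 2.40-fold with TGF-β (-1.26 ± 0.22, adjusted p = 0.00096). The call held in all 22 other fits, with an adjusted p of at most 0.0019 with vehicle and 0.0061 with TGF-β. TGF-β itself left Lamb1 at log2 changes of -0.25 ± 0.22 (adjusted p = 0.43) in scramble cells and 0.16 ± 0.22 (adjusted p = 0.65) in H1.0 siRNA cells. Lamb2, the other β chain, prominent at muscle and vessel basement membranes, was not called. It stood at 12372, 9707 and 8834 counts in scramble cells with vehicle and at 13960.2, 13325 and 10983 in H1.0 siRNA cells with vehicle, and the groups overlapped. Its log2 changes under the siRNA were 0.31 ± 0.16 with vehicle (adjusted p = 0.17) and 0.35 ± 0.16 with TGF-β (adjusted p = 0.12). Both were higher with the siRNA in 3 of 3 replicate pairs, and both passed with the replicate block (adjusted p = 0.0039 and 0.0022).

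The bases upstream of Lamb1, Lamb2 and Nid1 are shown because Lamb1 and Nid1 were called lower under the siRNA and Lamb2 was not. They were read from the RefSeq promoter table of GRCm38.p6, 5′ to 3′ on the plus strand, and end before the first annotated transcript start of each gene. Capitals mark matches on either strand to the GC box GGGCGG and to CAGAC, letters found in sites of SMAD proteins.
Lamb1 chr12:31265043-31265233: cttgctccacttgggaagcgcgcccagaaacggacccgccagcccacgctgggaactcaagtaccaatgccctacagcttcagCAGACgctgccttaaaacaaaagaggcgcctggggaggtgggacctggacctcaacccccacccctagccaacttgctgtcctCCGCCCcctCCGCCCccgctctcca
Lamb2 chr9:108479612-108479735: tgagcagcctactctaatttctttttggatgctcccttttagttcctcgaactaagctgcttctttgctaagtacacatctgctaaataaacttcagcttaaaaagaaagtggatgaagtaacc
Nid1 chr13:13437352-13437550: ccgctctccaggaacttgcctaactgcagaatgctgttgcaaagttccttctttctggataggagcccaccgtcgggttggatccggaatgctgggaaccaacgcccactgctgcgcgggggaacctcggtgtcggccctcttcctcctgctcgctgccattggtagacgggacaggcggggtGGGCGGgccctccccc
In the full 250 bases before the RefSeq start, Lamb1 held 2 GC boxes and 1 CAGAC, Lamb2 held 0 GC boxes and 2 CAGAC (both past the printed end), and Nid1 held 1 GC box and 0 CAGAC. Over 32851 RefSeq windows of that length, GGGCGG occurred in 32.7% and CAGAC in 42.2%. CCAAT occurred once before Lamb1 and once before Nid1 (33.9% of all windows), and TATAAA (12.4%) and TGANTCA (6.75%) in none of the 8 windows of the 10 genes. These 8 belong to 7 genes, since Agrn has a pair of starts. Agrn held 12 and 2 GC boxes, Hspg2 5, Lama5 4 and Lama2 0. GC content was 62.0% before Lamb1, 43.6% before Lamb2 and 64.4% before Nid1, against a median of 52.4%. No match says only that these letters are not in this window.

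Under TGF-β, Lamb2 was at log2 changes of -0.64 ± 0.16 in scramble cells (adjusted p = 0.013) and -0.59 ± 0.16 in H1.0 siRNA cells (adjusted p = 0.020). The scramble groups did not overlap (8834 to 12372 against 5925.0 to 7740 counts), nor did the H1.0 siRNA groups (10983 to 13960.2 against 6820 to 9569). Both passed with the replicate block (adjusted p = 5.3e-05 and 7.1e-05). In scramble cells the difference also passed without vehicle replicate 3 or without H1.0 siRNA TGF-β replicate 3, with an adjusted p down to 0.0069. As a share of the summed β chain counts per kilobase, Lamb2 made up 44.2% ± 7.29 (SD, n = 3) in scramble cells with vehicle and 38.0% ± 7.36 with TGF-β. The share was 75.7% ± 7.95 in H1.0 siRNA cells with vehicle and 64.7% ± 6.76 with TGF-β, and no H1.0 siRNA library (57.8% to 84.0%) overlapped a scramble library (31.5% to 51.7%). This share, too, was chosen after the values were seen and was not tested.

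Among the α chains, Lama4 was lower with the siRNA when TGF-β was present, and the share of Lama2 rose with TGF-β. Lama4 (chr10:38965515-39110188, plus strand) stood at 18405, 17125 and 16337 normalized counts in scramble cells with vehicle, 12314, 10758 and 8641 with TGF-β, 11164, 11179 and 9151 with H1.0 siRNA alone and 6336, 6983 and 3459 with both. The lowest group was the one with both agents, and scramble with TGF-β overlapped H1.0 siRNA with vehicle. Lama4 fell with the siRNA in the presence of TGF-β (log2 change -0.92 ± 0.22, adjusted p = 0.0067). Leaving out replicate 2 of scramble with vehicle, replicate 1 or 2 of scramble with TGF-β, or replicate 1 of H1.0 siRNA with TGF-β ended that call (adjusted p up to 0.029), as did fitting only the 2 groups (0.030). With vehicle the siRNA difference was -0.72 ± 0.22 (adjusted p = 0.023, and 0.0013 with the replicate block). TGF-β differences were -0.71 ± 0.22 in scramble cells (adjusted p = 0.029, and 0.0016 with the block) and -0.91 ± 0.22 in H1.0 siRNA cells, where the adjusted p of 0.010 did not pass and that with the block was 0.00033. Replicate 3 of H1.0 siRNA with TGF-β was the lowest Lama4 library. Without it all 3 differences that had missed the threshold passed, with adjusted p = 0.0012 for the siRNA with vehicle, 0.0019 for TGF-β in scramble cells and 0.0096 for TGF-β in H1.0 siRNA cells.

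Lama2 (chr10:26980036-27619758, minus strand) stood at 6574, 4657 and 7811 counts in scramble cells with vehicle and at 9464, 7774 and 11864 with TGF-β, so that the groups overlapped by the edge of 1 library although each replicate was higher with TGF-β. In H1.0 siRNA cells it was at 4955, 4024 and 5746 under vehicle, and 9246, 6904 and 9732 after TGF-β, without overlap. The log2 differences were 0.61 ± 0.22 (adjusted p = 0.050) and 0.81 ± 0.22 (adjusted p = 0.016), and with the replicate block 0.62 ± 0.06 (adjusted p = 3.0e-05) and 0.81 ± 0.06 (adjusted p = 4.5e-06). Under the siRNA, Lama2 was at -0.37 ± 0.21 with vehicle (adjusted p = 0.21, and 0.00095 with the block) and -0.17 ± 0.21 with TGF-β (adjusted p = 0.59). Lama5 was rare throughout, at 843.8 to 1240 normalized counts in scramble cells with vehicle and 286.6 to 630.2 with both agents. Its siRNA difference with vehicle was -0.77 ± 0.26 (adjusted p = 0.039) and its TGF-β difference in scramble cells -0.68 ± 0.26 (adjusted p = 0.072). These 2 passed with the block (adjusted p = 0.0019 and 0.0041), and the others of Lama5 did not (adjusted p = 0.017 and 0.035).

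The make-up of the α chain RNA was tested as shares of the summed TPM of Lama2, Lama4 and Lama5 in each library, which need no scaling between libraries. Lama2 TPM includes a coding transcript of 3383 bases, at 0.671 to 2.60 TPM in scramble cells with vehicle and 8.86 to 14.2 with both agents. The mean Lama2 share by TPM and by counts per kilobase was 19.72% and 18.25% in scramble cells with vehicle. With both agents it was 54.43% and 49.05%. Lama2 made up 22.2% of α chain TPM over the 6 vehicle libraries and 46.9% over the 6 TGF-β libraries, a difference of 24.6 percentage points. Lama4 went from 75.5% to 51.1%, a difference of -24.4 points. Because Lama5 held only 2.23% and 2.02%, the Lama2 and Lama4 shares nearly mirror each other, and their tests are not separate results. For both the two-sided exact permutation test within the siRNA strata (400 arrangements) gave p = 0.005, the smallest it can give, and an adjusted p of 0.015 over 6 tests, under the threshold of 0.05 set for these shares. The directions held in each siRNA stratum: Lama2 went from 19.7% ± 5.47 to 39.3% ± 8.64 (SD, n = 3) in scramble cells and from 24.8% ± 7.25 to 54.4% ± 13.3 in H1.0 siRNA cells, and the vehicle and TGF-β libraries did not overlap in either. That test exchanges libraries without regard to replicate number. An exact sign-flip test over the 6 pairs of same-numbered libraries, chosen after the data were seen, gave an adjusted p of 0.0469 for both, with Lama2 higher and Lama4 lower in 6 of 6 pairs. The 6 pairs come from 3 replicate numbers, and the test flips each pair on its own. It thus takes pairs of the same number as independent, and its p-values can be too small. The Lama5 share was 2.23% with vehicle and 2.02% with TGF-β (exact permutation p = 0.615, adjusted p = 0.615). The siRNA differences did not pass the first test: Lama2 was 29.5% in scramble and 39.6% in H1.0 siRNA libraries (exact permutation p = 0.080, adjusted p = 0.12), and Lama4 68.1% and 58.5% (exact permutation p = 0.075, adjusted p = 0.12). With the pairing, Lama2 was higher and Lama4 lower with the siRNA in 6 of 6 pairs. The exact sign-flip p was 0.03125, the smallest that 64 arrangements can give, and the adjusted p 0.0469, under the same limit. The 2 tests thus differ on these siRNA differences, and no conclusion is drawn from them. Lama5 was 2.34% and 1.91% (exact permutation p = 0.31, adjusted p = 0.372, and 0.1125 with the pairing).

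**Figure D3:**
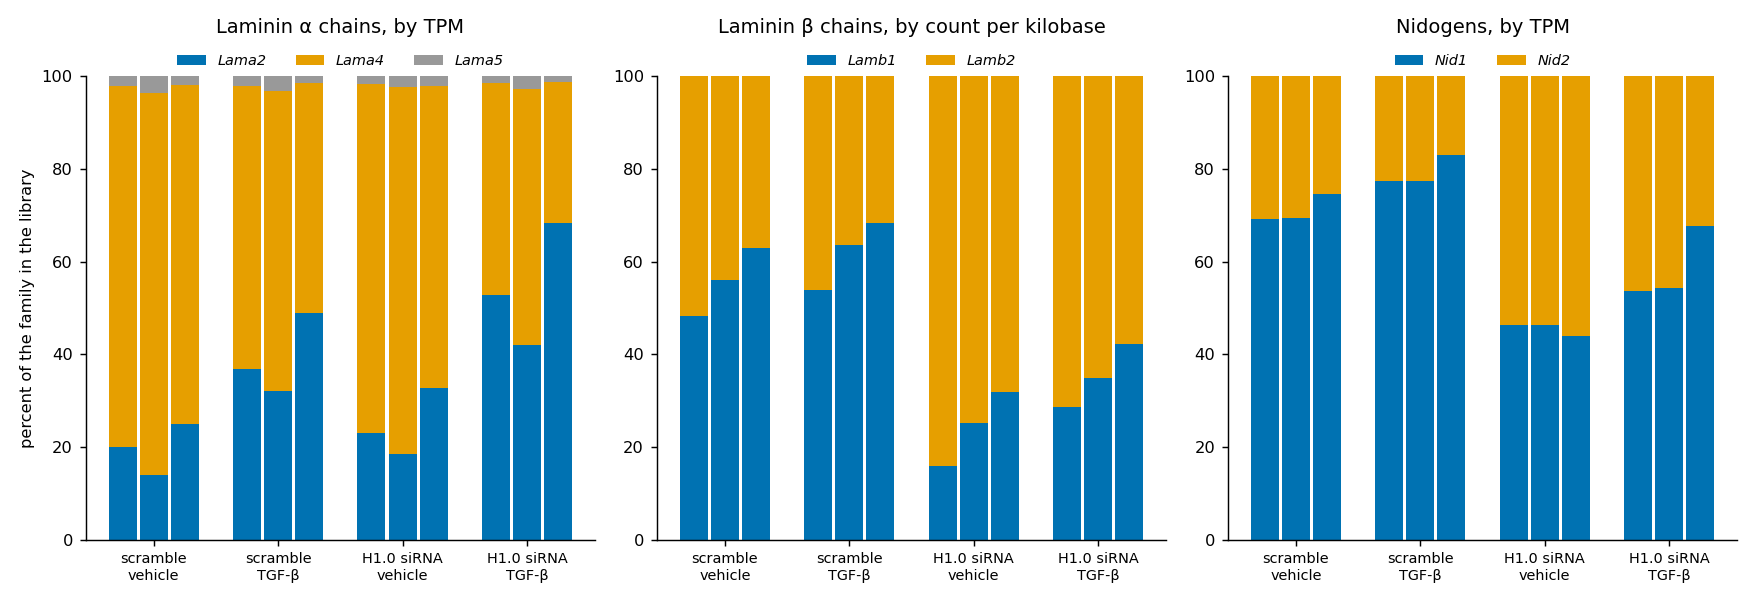
Shares of each library's α chain TPM (left), β chain counts per kilobase (middle) and nidogen TPM (right), in percent; each bar is 1 library, replicates 1 to 3 from left to right within each group. Lama2 takes 14.1% to 32.7% of the α chain TPM in the 6 vehicle libraries and 32.1% to 68.4% in the 6 TGF-β libraries, and Lamb2 and Nid2 take larger shares in all 6 H1.0 siRNA libraries.

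Lamc1, the γ1 chain shared by these laminins, was the steadiest of the 10 under TGF-β, with log2 changes of -0.04 ± 0.10 (adjusted p = 0.82) and 0.03 ± 0.10 (adjusted p = 0.87). Its siRNA differences were 0.22 ± 0.10 with vehicle (22562, 19554 and 22834 against 25864, 22685 and 26845 counts, adjusted p = 0.13) and 0.28 ± 0.10 with TGF-β (adjusted p = 0.052). Both passed with the replicate block (adjusted p = 0.0078 and 0.0015). Relative to Lamc1, per kilobase, the summed α chains stood at 1.27 in scramble cells with vehicle (range of 3 libraries 1.20 to 1.34), 1.02 with TGF-β (0.954 to 1.07), 0.701 in H1.0 siRNA cells with vehicle (0.614 to 0.781) and 0.555 with TGF-β (0.478 to 0.623). The summed β chains followed the same order at 1.46, 1.13, 0.915 and 0.691 per Lamc1. For both sums the scramble and H1.0 siRNA libraries did not overlap with either agent, while the α values of the 2 H1.0 siRNA groups overlapped at their edge. These ratios were chosen after the values were seen and are given without a test.

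Perlecan and agrin, the heparan sulfate proteoglycans of the set, had no call without the block. Hspg2 was at 68962, 52376 and 57397 counts in scramble cells with vehicle, 68698, 61496 and 59485 with TGF-β, 46121, 41567 and 57212 with H1.0 siRNA and 61233, 59041 and 69146 with both. Of the 4 comparisons, only TGF-β against vehicle in H1.0 siRNA cells had groups without overlap, at a log2 difference of 0.39 ± 0.14 (adjusted p = 0.054, and 0.015 with the block). The siRNA differences were -0.30 ± 0.14 with vehicle (adjusted p = 0.11) and 0.00 ± 0.14 with TGF-β (adjusted p = 0.99). Agrn, the proteoglycan that clusters acetylcholine receptors at the neuromuscular junction, varied widely between replicates. It stood at 9462, 6967 and 4369 counts in scramble cells with vehicle, 6919, 5576 and 4369 with TGF-β, 6760.4, 5504 and 3959 with H1.0 siRNA and 5559.7, 4257 and 3295 with both. The groups overlapped in all 4 comparisons. The siRNA differences were -0.36 ± 0.29 in both media (adjusted p = 0.38 in both). The replicate block gave -0.33 ± 0.08 (adjusted p = 0.0048) without and -0.37 ± 0.08 (adjusted p = 0.0023) in the presence of TGF-β, where 3 of 3 pairs were lower. For TGF-β they were -0.30 ± 0.29 (adjusted p = 0.48) in scramble cells and -0.31 ± 0.29 (adjusted p = 0.49) in H1.0 siRNA cells, with the block at 0.019 and 0.0089.

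Counting calls over the 10 genes, the siRNA gave 1 higher (Nid2) and 2 lower (Lamb1, Nid1) with vehicle, where 13.4% and 11.2% of all genes were called higher and lower. With TGF-β it gave 0 higher and 3 lower (Lama4, Lamb1, Nid1), against 13.0% and 11.3% of all genes, and at an unadjusted p under 0.05 2 genes were higher and 3 lower, where 43.8% of all genes had such a p. DESeq2 called 5 genes with vehicle and 4 with TGF-β, against 34.6% and 31.2% of all genes. With the replicate block the counts were 3 higher and 6 lower with vehicle (background 17.4% and 16.2%) and 3 higher and 4 lower with TGF-β (17.6% and 16.0%). The median log2 change of the 10 genes was -0.36 with vehicle and -0.27 with TGF-β, and that of all genes 0.00 and 0.04. The comparisons of the siRNA with vehicle and with TGF-β use separate libraries, but each shares its libraries with a TGF-β comparison.

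Whether the siRNA altered the response to TGF-β was tested as an interaction. By edgeR 0 of the 10 genes passed, where 0.0444% of all genes did, and 0 had an unadjusted p under 0.05, against 11.9% of all genes. DESeq2 and limma-voom gave 0 calls as well (1.77% and 0.0222% of all genes). The fit with the block gave 0 calls (0.655% of all genes) and 1 gene at an unadjusted p under 0.05 (18.3% of all genes). The widest interaction terms were those of Lamb1 at 0.40 ± 0.31 (adjusted p = 0.67) and Hspg2 at 0.30 ± 0.19 (adjusted p = 0.59). For Nid1 and Nid2 they were -0.10 ± 0.17 and -0.06 ± 0.37, and for Lama4 -0.20 ± 0.31. The SEs of the 10 interaction terms ran from 0.15 to 0.41.

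For the 3 genes with the widest called siRNA change, the 5 genes of most similar log2 CPM over the 12 libraries were sought among 11446 genes with a mean of at least 100 normalized counts. The 12 libraries share 4 conditions and 3 replicate numbers, so such correlations describe these libraries and carry no p. Nearest to Lamb1 were Dcaf6 and Adcyap1r1 (Pearson r = 0.966 each), Gria3 and Nkain3 (0.965 each) and Zfpm2 (0.964), and Adcyap1r1, a receptor for the peptide PACAP, went from means of 743.9 and 807.2 counts in scramble cells to 166.7 and 227.0 in H1.0 siRNA cells. Nid2 was nearest to Il6ra (r = 0.99), the interleukin-6 receptor subunit, whose means were 724.9, 221.6, 2012 and 445.5 in the order of groups above. Wfdc17, Ece2, Cc2d2a and Nrbp2 came next (0.984 to 0.987). Lama4 was nearest to Fam13c (r = 0.994), Cobll1 (0.992), Lum (0.99), Tcf21 (0.989) and Bmp3 (0.988). Lum encodes the collagen-binding proteoglycan lumican, Tcf21 is a transcription factor of resident cardiac fibroblasts, and both are in the fibroblast marker list used here. The 10 markers of that list moved in both directions. With the siRNA and vehicle 2 were called higher (Col3a1, Dcn) and 1 lower (Thy1), against 13.4% and 11.2% of all genes. With the block Lum, Ddr2 and Tcf21 also passed there, lower (adjusted p = 0.00065, 0.0021 and 0.0026, where 16.2% of all genes were lower). With the siRNA and TGF-β 1 was higher (Dcn) and 3 lower (Lum, Tcf21, Thy1), against 13.0% and 11.3%. The block added Col1a2 and Col3a1 as higher (adjusted p = 0.0033 and 0.0070) and Pdgfra and Ddr2 as lower (0.0013 and 0.0078). It called 17.6% and 16.0% of all genes higher and lower. TGF-β gave 1 higher and 3 lower in scramble cells, against 10.5% and 7.94%. In H1.0 siRNA cells it gave 2 higher and 5 lower, against 9.14% and 6.6%. With the block Col3a1, Lum and Tcf21 also passed in scramble cells (adjusted p at most 0.0028) and Lum in H1.0 siRNA cells (adjusted p = 0.00038), all lower. There 13.0% and 12.6% of all genes were lower with the block.

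Other genes of the laminin pathway were taken from 7 lists. Their counts stand beside these shares of all genes called higher and lower: 13.4% and 11.2% for the siRNA with vehicle, 13.0% and 11.3% for it with TGF-β, and, for TGF-β, 10.5% and 7.94% (scramble cells) and 9.14% and 6.6% (H1.0 siRNA cells). With the replicate block, in that order, they were 17.4% and 16.2%, 17.6% and 16.0%, 15.4% and 13.0%, and 14.2% and 12.6%. In the siRNA comparisons, 10 of 22 other basement membrane proteins were called with vehicle, 9 of them lower, and 6 with TGF-β, 4 of them lower (13 and 12 lower with the replicate block, 4 higher in both). The type IV collagen chains Col4a1 and Col4a2, which form the network that nidogen joins to laminin, were at log2 changes of -0.59 ± 0.15 (adjusted p = 0.0088) and -0.70 ± 0.16 (adjusted p = 0.0061) with vehicle, and at -0.39 ± 0.15 and -0.41 ± 0.16 with TGF-β (adjusted p = 0.063 and 0.075, and 0.0039 and 0.0046 with the block). With vehicle the lowest adjusted p of the list belonged to Col15a1 (-2.70 ± 0.25, adjusted p = 1.6e-05), Npnt (-1.94 ± 0.20, adjusted p = 2.7e-05) and Smoc2 (-2.44 ± 0.33, adjusted p = 0.00017). Col15a1 encodes a collagen of the outer basement membrane zone, Npnt the integrin ligand nephronectin and Smoc2 a calcium-binding matricellular protein. Under TGF-β, 2 were higher and 2 lower in scramble cells, and 3 higher and 0 lower in H1.0 siRNA cells (3 and 4, and 5 and 5, with the block). The peroxidase that crosslinks type IV collagen, Pxdn, rose in both (log2 changes 0.71 ± 0.14 and 0.74 ± 0.14, adjusted p = 0.0035 and 0.0032), as did Col15a1 (1.02 ± 0.24 and 2.95 ± 0.25, adjusted p = 0.0073 and 2.6e-05). The 5 other laminin chains were scarce, and 1 (Lamc3, at a mean of at most 40.5 counts) was called, lower with the siRNA in the presence of TGF-β. With the block 1 higher and 1 lower passed there and for TGF-β in scramble cells, and 2 higher and 1 lower for TGF-β in H1.0 siRNA cells.

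**Figure D4:**
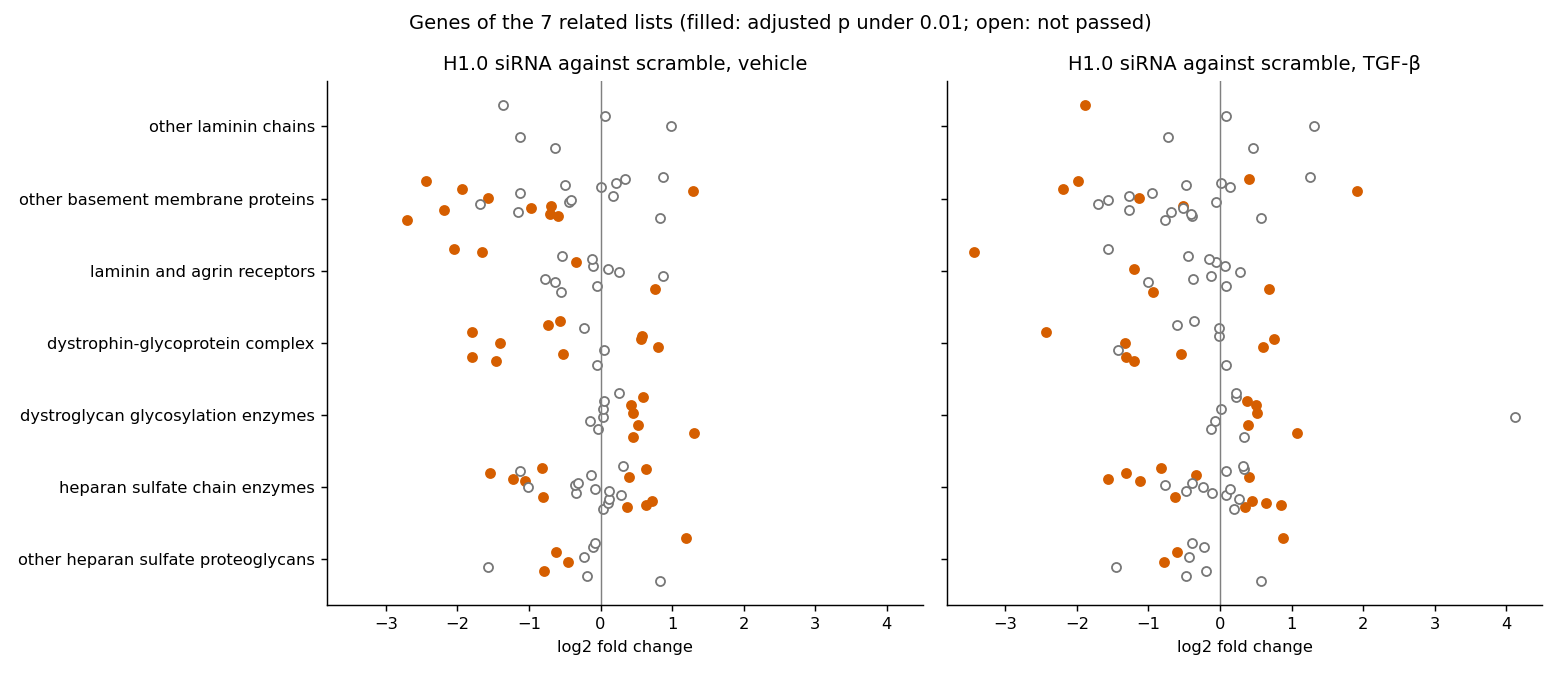
Log2 fold change of H1.0 siRNA against scramble, with vehicle (left) and with TGF-β (right), for the tested genes of 7 related lists, 1 symbol per gene; filled symbols have an adjusted p under 0.01 by edgeR without the block. All 6 called dystroglycan glycosylation enzymes with vehicle and all 5 with TGF-β are right of 0, and 9 of 10 called basement membrane proteins with vehicle are left of it.

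Of 14 laminin and agrin receptors, 4 were called higher and 0 lower with TGF-β in each kind of cell, and 1 higher and 3 lower with the siRNA in each medium, beside 10.5% and 9.14% of all genes higher with TGF-β and 11.2% and 11.3% lower with the siRNA. With the block the TGF-β counts were 5 higher and 2 lower in scramble cells and 4 and 3 in H1.0 siRNA cells, and the siRNA counts 2 and 6 under vehicle, then 1 and 5 under TGF-β. Mcam, an endothelial and pericyte adhesion molecule that binds laminin α4, rose by 3.15 ± 0.20 on the log2 scale with TGF-β in scramble cells (adjusted p = 1.1e-05) and fell by 3.44 on that scale with the siRNA in the presence of TGF-β (SE 0.20, adjusted p = 1.0e-06). It also fell by 1.66 with the siRNA and vehicle (SE 0.21, adjusted p = 0.00011) and rose by 1.36 ± 0.21 with TGF-β in H1.0 siRNA cells (adjusted p = 0.00074). Its interaction term was -1.79 ± 0.28, with an adjusted p of 0.028 that did not pass, and it was the 1 gene of the 7 lists whose interaction passed with the block (adjusted p = 0.0060, where 0.655% of all genes passed). The integrin chain Itga7, which binds laminin α2, rose by 1.41 ± 0.19 in scramble cells (adjusted p = 0.00032), and with TGF-β was lower under the siRNA (-1.20 ± 0.18, adjusted p = 0.00039). It was at 0.12 ± 0.18 with TGF-β in H1.0 siRNA cells (adjusted p = 0.70) and 0.10 ± 0.19 with the siRNA and vehicle (adjusted p = 0.74). The Itga7 interaction term of -1.29 ± 0.26 did not pass (adjusted p = 0.065, and 0.023 with the block). Dag1, which encodes dystroglycan and stands in both the receptor and the dystrophin lists, was at log2 changes of -0.05 ± 0.06 and 0.09 ± 0.06 under the siRNA (adjusted p = 0.58 and 0.27).

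Of 13 tested genes of the dystrophin-glycoprotein complex, which ties laminin to the cytoskeleton, the siRNA gave 3 higher and 7 lower with vehicle and 2 higher and 5 lower with TGF-β (7 lower in both with the block). Dmd, dystrophin, was at -1.46 ± 0.12 (adjusted p = 7.2e-06) and -1.20 ± 0.12 (adjusted p = 2.1e-05). Sgcd, δ-sarcoglycan, was at -1.40 ± 0.11 (adjusted p = 4.0e-06) and -1.33 ± 0.10 (adjusted p = 4.3e-06), while Sgcb and Sgce, also sarcoglycans, were higher (0.80 ± 0.13 and 0.57 ± 0.12 with vehicle, adjusted p = 0.00074 and 0.0037). Under TGF-β, 0 were higher and 2 lower in scramble cells, and 1 higher and 2 lower in H1.0 siRNA cells (0 and 3, and 1 and 4, with the block). Of 12 tested enzymes that build the laminin-binding glycan of dystroglycan, 6 were higher with the siRNA and vehicle, 5 with TGF-β, and 0 lower. B4gat1, a glucuronyltransferase of that glycan, rose by 1.30 ± 0.11 (adjusted p = 7.7e-06) and 1.07 ± 0.11 (adjusted p = 2.4e-05), and Pomgnt1, which extends O-mannose glycans, was also higher in both, by 0.45 ± 0.05 (adjusted p = 5.5e-05) and 0.52 ± 0.05 (adjusted p = 1.9e-05). With TGF-β, 2 of the 12 were higher and 1 lower in scramble cells, and 1 and 1 in H1.0 siRNA cells.

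Among 23 enzymes of heparan sulfate chains, which perlecan and agrin carry, the siRNA gave 5 higher and 5 lower with vehicle and 5 higher and 6 lower with TGF-β (7 and 6 in both with the block). Ext2, a chain polymerase subunit, rose by 0.72 ± 0.06 with vehicle (adjusted p = 8.3e-06), and the 6-O-sulfotransferase Hs6st2 was lower in both media (-1.22 ± 0.12 and -1.56 ± 0.12, adjusted p = 2.6e-05 and 5.2e-06). TGF-β gave 3 higher and 0 lower in scramble cells and 6 higher and 2 lower in H1.0 siRNA cells (6 and 2, and 6 and 7, with the block). Ext1, the other polymerase subunit, rose in both (0.78 ± 0.09 and 1.32 ± 0.10, adjusted p = 0.00020 and 8.8e-06). Of 10 other heparan sulfate proteoglycans tested, Gpc1 (glypican-1) rose with TGF-β in both kinds of cells, at 1.01 ± 0.14 and 0.71 ± 0.14 (adjusted p = 0.00046 and 0.0033), and was the 1 call in each. The block gave 2 higher and 2 lower in scramble cells and 1 higher and 3 lower in H1.0 siRNA cells. Under the siRNA 1 was higher and 3 lower with vehicle, and 1 higher and 2 lower with TGF-β (2 and 4, and 2 and 5, with the block), with Sdc4 (syndecan-4) at 1.19 ± 0.15 (adjusted p = 0.00011) and 0.88 ± 0.15 (adjusted p = 0.00079). The median log2 change of each list lay between -0.64 and 0.35 in the 4 comparisons, beside -0.01 to 0.04 for all genes.

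Several of the 10 genes are also expressed by vessel and immune cells, and in whole cultures fewer cells of a type and less RNA per cell cannot be told apart. The 10 fibroblast markers summed to 14089 TPM or more in every library. Of 9 cardiomyocyte markers 6, Myh6 and Myl2 among them, were under 1 TPM in every library. The summed cardiomyocyte markers, mostly Tnnt2, stood at 132.5 to 197.6 TPM in scramble and 14.7 to 24.5 TPM in H1.0 siRNA libraries. The 12 endothelial markers summed to 295.8 to 343.8 TPM in scramble cells with vehicle, 301.2 to 339.5 with TGF-β, 204.7 to 239.4 with H1.0 siRNA and 244.6 to 265.6 with both. Most of this was Eng, which fibroblasts also express, while Pecam1 and Cdh5 had group means of 3.53 to 6.98 TPM. The 9 smooth muscle and pericyte markers, mostly Pdgfrb, summed to 214.6 to 359.8 TPM in scramble and 102.7 to 187.2 TPM in H1.0 siRNA libraries. Macrophage markers were present: all 10 were detected above 1 TPM in some library, and they summed to 1426 to 1584 TPM in scramble cells with vehicle, 1055 to 1105 with TGF-β, 1135 to 1239 with H1.0 siRNA and 614.3 to 928.5 with both, most of it Lyz2. The 8 Schwann cell markers and 9 mesothelial and epithelial markers summed to at most 9.98 and 30.2 TPM. With the siRNA, where Lamb1 and Nid1 fell in both media, the endothelial and macrophage markers moved in both directions. The smooth muscle and pericyte markers had median log2 changes of -1.28 with vehicle and -0.87 with TGF-β. None of them was higher with vehicle, and with TGF-β only Des was (0.43 ± 0.76, adjusted p = 0.71). Only Pdgfrb of that list was called, in both media, where 11.2% (vehicle) and 11.3% (TGF-β) of all genes were called lower. With the block Myh11, Rgs5, Abcc9, Cspg4 and Notch3 also passed with vehicle, all lower (adjusted p at most 0.0012). With the block and TGF-β, Myh11, Rgs5, Cspg4, Notch3 and Mustn1 also passed, all lower (adjusted p at most 0.0026). The block called 16.2% of all genes lower with vehicle and 16.0% with TGF-β. Pdgfrb was lower (-1.22 ± 0.13 with vehicle and -0.81 ± 0.13 with TGF-β, adjusted p = 4.2e-05 and 0.00061), as was Tek (-2.00 ± 0.24 and -1.19 ± 0.23, adjusted p = 7.7e-05 and 0.0020). Eng was called lower with vehicle, C1qb in both media and Lyz2 with TGF-β. Adgre1 was called higher with vehicle (0.90 ± 0.18, adjusted p = 0.0026), and Cdh5 was at 0.40 ± 0.28 and 0.45 ± 0.29 (adjusted p = 0.31 and 0.26). With TGF-β in H1.0 siRNA cells, where Nid1 fell, the endothelial sums were higher than with vehicle and the macrophage sums lower, and the pericyte sums went from 102.7 to 139.6 TPM with vehicle to 135.3 to 187.2. The endothelial sums followed Eng, whose group mean went from 168.1 to 208.9 TPM. Apart from Eng, Erg and Kdr, the endothelial markers had lower group means with TGF-β, such as Pecam1 (4.15 to 3.53) and Cdh5 (6.98 to 5.15). None of the 12 was called in this comparison, where 9.14% and 6.6% of all genes were called higher and lower. With the block Eng passed, higher (adjusted p = 0.00017). Of the 10 macrophage markers 4 were called lower (C1qa, Cd68, Mrc1, Ptprc) and 0 higher. With the block Adgre1, C1qb and Lyz2 also passed, lower (adjusted p at most 0.0093). In scramble cells TGF-β left 3 lower (Cd68, Mrc1, Ptprc) and 0 higher, against 7.94% and 10.5% of all genes. There Lyz2 also passed with the block, lower (adjusted p = 0.0067). The part of other cell types in these results was not tested.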

How the data were processed

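RNA-seq libraries of 12 cultures were prepared after ribosomal RNA removal and sequenced as paired ends. For each library the authors deposited Salmon's estimated counts per transcript, which need not be whole, with TPM values and effective lengths. Per the labels the genome was mm10. The sources used here do not say whether strand entered the counting. GENCODE M21 gave a gene for 115973 of the 117135 transcripts (99.5% to 99.6% of reads), and counts were summed per gene and rounded. Library totals ranged from 19.9 to 36.3 M. The test took each gene whose counts summed to 10 or more and was made with edgeR 4.0.16 (TMM, quasi-likelihood F test, 4 groups in 1 fit, Benjamini-Hochberg, R 4.3.3). DESeq2 1.42.0 and limma 3.58.1 were alternatives, with other scalings, filters, a length offset, thinning to the lowest total, fits on only the groups compared and fits without each library. The SE is the log2 change divided by the root of F. The edgeR fit was tested on simulated data with known changes.

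Same-numbered libraries deviated together from their group means in every pair (r = 0.334 to 0.732 over 9014 genes, against -0.641 to 0.382 for other pairs), so the numbers were taken to pair the samples. This comes from the data, since the labels give only the number. Replicates of a group differed beyond counting error (chi-square over its degrees of freedom 9.41 to 69.3). Shares of α chain TPM were tested by exact permutation, and by sign flips within same-numbered pairs. Each member was named, with up to 3 called genes per list, direction and comparison of at least 100 mean normalized counts. Where others are named (Col4a1, Col4a2, Dag1, Lamc3, Rtraf and marker genes), they were chosen after their values were seen. The 10 genes and the lists were chosen with earlier results of these data known. Promoters came from RefSeq (GRCm38.p6), and loci from the annotation.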

Additional observations from a re-analysis of the deposited data

How the results depend on the processing

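Of 1090 values of the 10 genes under 22 alternatives (10 for other tools, scalings, filters or designs and 12 leaving out 1 library; the fit on only 2 groups has no interaction), 992 kept direction and side of the threshold, 43 gained a call, 38 lost one and 17 changed sign, all 17 without a call on either side. The replicate block moved the calls most: from 2 to 6 for TGF-β in each kind of cell, from 3 to 7 for the siRNA with TGF-β and from 3 to 9 with vehicle. DESeq2 gave 4, 5, 5 and 4 calls for TGF-β in scramble cells, TGF-β in H1.0 siRNA cells, the siRNA with vehicle and the siRNA with TGF-β, while it called 29.6%, 27.8%, 34.6% and 31.2% of all genes. Fitting only the 2 groups gave 0 calls for TGF-β in H1.0 siRNA cells, where 8.45% of all genes were called. The cause was not tested. Leaving out 1 library gave 0 to 4 calls for TGF-β in scramble cells, 1 to 3 in H1.0 siRNA cells, 1 to 3 for the siRNA with TGF-β and 1 to 4 with vehicle. In the same fits these log2 values changed sign: Lamc1 under TGF-β (-0.11 to 0.04 in scramble cells, -0.03 to 0.09 in H1.0 siRNA cells), Lamb1 under TGF-β in H1.0 siRNA cells (-0.07 to 0.36) and the interactions of Lama4 (-0.39 to 0.05), Lama5 (-0.06 to 0.52), Lamb2 (-0.10 to 0.18), Lamc1 (-0.01 to 0.13), Nid1 (-0.21 to 0.03) and Nid2 (-0.28 to 0.21). The Agrn interaction and the Hspg2 difference under the siRNA with TGF-β lay near 0 in the main fit. Over the alternatives they ran from -0.29 to 0.24 and from -0.07 to 0.06, so neither had a stable sign. The 17 sign changes do not include that of Hspg2. The Lama5 share difference under TGF-β ran from -0.44 to 0.04 points. With counts per kilobase in place of TPM, the Lama2 and Lama4 share differences under TGF-β kept their directions, again at an adjusted p of 0.015. With sign flips within same-numbered pairs, chosen after seeing the data, the siRNA share differences of 10.08 points for Lama2 and -9.65 for Lama4 had an adjusted p of 0.0469. That test takes pairs of the same replicate number as independent, so its p-values can be too small. No other share value changed its side of the threshold. The spread between replicates exceeded counting error in every group, so depth alone did not set the precision. Lama5 was the rarest of the 10, at 441.1 counts in its lowest group.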

Other observations

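Transcripts of the same genes were read as a description, since Salmon divides reads that transcripts share. Agrn has coding transcripts from 2 starts 11587 bases apart. The upstream start took 49.6% to 66.4% of the Agrn coding TPM over the 12 libraries, and the 4 groups overlapped. Hspg2 was split between 2 coding transcripts of 14187 and 14176 bases, at 44.1% to 50.3% and 49.6% to 55.8% of its counts. Full-length Lama2 held 85.9% to 96.0% of the Lama2 counts. A shorter coding transcript of 3383 bases, which starts inside the gene, took 0.649% to 1.51% of them in scramble cells with vehicle and 1.82% to 2.20% with TGF-β. With H1.0 siRNA its share was 1.97% to 4.53% with vehicle and 6.26% to 7.56% with TGF-β. The group with both agents did not overlap the others. This transcript was singled out after its values were seen, and no test was made.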
